A study of Rattus with 8 samples.

Results

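Metalloproteases are zinc-dependent enzymes that cut the extracellular matrix and the outer parts of membrane proteins, and their protein inhibitors set how much of that activity remains. The genes described here are the rows of the deposited table whose symbol is Mmp, Adam, Adamts, Adamtsl or Timp directly followed by a number, with a further letter allowed, together with Reck. They were chosen by name alone. There are 65 such genes among the 18374 of the table, namely 19 Mmp, 17 Adam, 19 Adamts, 5 Adamtsl and 4 Timp genes and Reck. The cells were rat neural stem cells, which renew themselves and give rise to neurons and glia, and their messenger RNA was sequenced on day 5 in 4 groups of 2 samples. The groups were cells grown with piezoelectric nanostickers (nanosticker), cells given ultrasound (ultrasound), cells grown with a piezoelectric agent that the labels do not specify further (piezoelectric) and cells left untreated (control). The labels name no strain, age or genotype, and they do not say whether the nanosticker group was also given ultrasound. Nothing states that the pair of samples in a group are separate cultures. Each p-value therefore reflects the spread within these pairs alone, and that spread may be technical.

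The matrix metalloproteases (Mmp) are made as proenzymes, either secreted or held at the cell surface, and cut collagens, laminins and other matrix proteins. The Adam proteins are membrane-bound and release the outer parts of receptors, adhesion proteins and growth factors, and a few of them have lost the catalytic residues. The Adamts proteins are secreted, carry thrombospondin repeats and include the enzymes that cut lecticans, the large proteoglycans of brain matrix, while the Adamtsl proteins resemble them but have no protease domain. The 4 Timp proteins and the membrane-anchored Reck are inhibitors of these enzymes. In brain these proteins are known for their part in matrix turnover, cell migration, Notch and growth factor signalling and myelin formation.

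The libraries held between 15239133 and 15628667 counts. With 3 counts taken as the limit that a count of 0 allows, a gene at 0 could have stood at up to 0.192 to 0.197 CPM (counts scaled to the library total), a limit that covers counting error only. The 2 control libraries differed along transcript length, with a Spearman correlation of -0.457 between effective length and the log2 ratio of replicate 1 to replicate 2 over 13756 genes, against 0.0990 to 0.20 in the other groups. The summed level of 8 markers of neural stem and progenitor cells was 3015 to 3036 TPM in the nanosticker group, 4639.6 to 4642 TPM with ultrasound, 5044 to 5115 TPM with the piezoelectric material and 4980.0 to 5434 TPM in the control group, and none of these markers was at 0 in any group. Fabp7 made up most of this sum, with 2536 and 2515 TPM in nanosticker libraries, against 4985 and 4470.2 TPM in control libraries, and the 7 other markers together had 479 and 521 TPM with nanostickers, against 449.7 and 509.8 TPM in controls. Markers of other lineages were present too, and the summed level of 8 oligodendrocyte lineage markers was 16982 to 17149.9 TPM in the nanosticker group, 6628 to 6662 TPM with ultrasound, 5164 to 5187 TPM with the piezoelectric material and 4998 to 5416 TPM in the control group. That of 6 astrocyte markers was 1980.3 to 1996 TPM in the nanosticker group, 3844 to 4135 TPM with ultrasound, 4232 to 4422 TPM with the piezoelectric material and 3399 to 3491 TPM in the control group. The 8 microglia and macrophage markers summed to 2.0 to 2.87 TPM in the nanosticker group, 28.4 to 37.4 TPM with ultrasound, 25.0 to 26.8 TPM with the piezoelectric material and 34.9 to 41.1 TPM in the control group, with Cx3cr1 at 0 in both nanosticker libraries. In bulk samples, fewer cells of a type and less RNA per cell cannot be told apart.

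Across the 8 libraries a pair of inhibitors stood highest of all members. TPM, the length- and depth-scaled transcript abundance deposited by the authors, takes transcript length into account and was used to compare levels between genes. Timp2, the inhibitor that also takes part in the activation of the Mmp2 proenzyme, had 361 and 444 TPM in control libraries, and Timp1, a secreted inhibitor, had 352 and 309 TPM there. Mmp14, a membrane-anchored collagenase, followed with 150.2 and 190.4 TPM. These were the 3 members with a mean above 100 TPM over the 8 libraries. A further 7 had a mean of at least 50 TPM, namely Adam15, Mmp15, Timp3, Adamts4, Adam9, Mmp19 and Adam11. In all, 42 members had a mean of at least 1 TPM and 22 of at least 10 TPM.

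**Figure D1:**
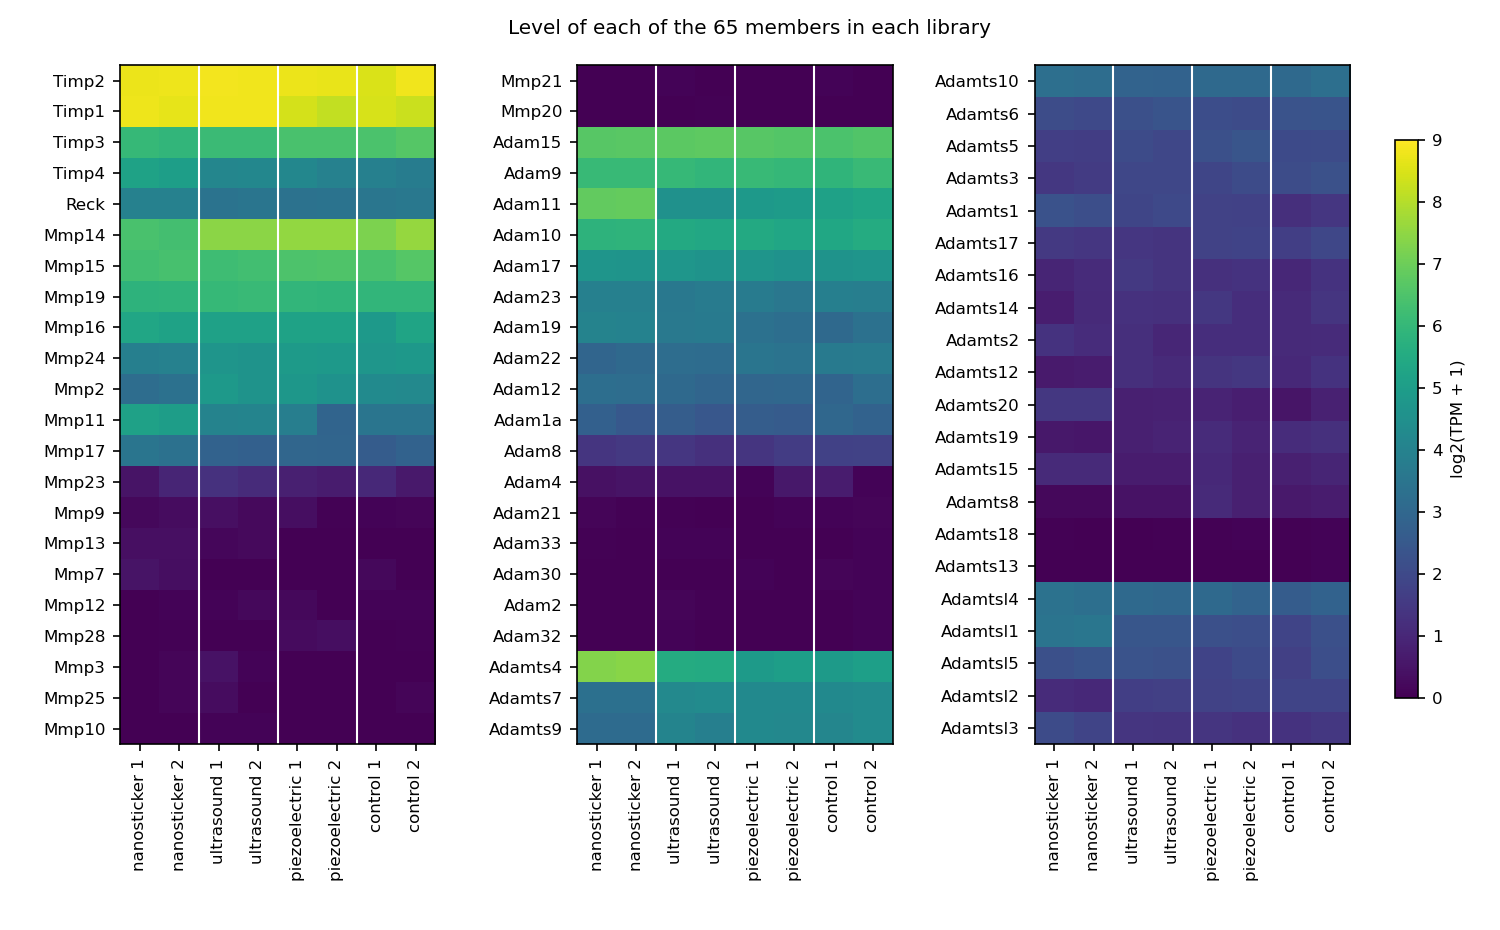
Level of each of the 65 members (rows) in each of the 8 libraries (columns), as log2(TPM + 1) on a colour scale that is the same in the 3 panels; members are ordered by family and, within a family, by their mean. Timp1 and Timp2 are bright in every library, Adamts4 and Adam11 are brighter in the nanosticker columns than elsewhere, and 17 members are dark in all libraries.

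Many secreted Mmps were at the edge of detection. The filter on low counts left 48 members for testing, and the 17 others never had more than 8 counts or 0.4 TPM in a library. They were 10 Mmp, 5 Adam and 2 Adamts genes. Mmp9, the secreted gelatinase known from inflamed and injured tissue, had 4 and 6 counts with nanostickers, 8 and 5 with ultrasound, 7 and 1 with the piezoelectric material and 2 and 2 in controls, which is too few for a comparison. A run of 6 neighbouring Mmp genes, Mmp13, Mmp12, Mmp3, Mmp10, Mmp20 and Mmp7, lies on chromosome 8 between 5522739 and 5900965 in the Rnor 6.0 coordinates of the table. All 6 were among the untested members. Mmp13, a collagenase singled out after its values were seen, had 7 and 7 counts in the nanosticker libraries and 3 and 4 in the ultrasound libraries, while the piezoelectric and control libraries had 0.

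The first question was which members differed between cells grown with nanostickers and untreated cells. Members moved in both directions within nearly every family. Adamts4, Adam11, Adamtsl1, Mmp11 and Timp4 were among those that rose by more than 2-fold, and Mmp14, Mmp2, Adamts9, Adamts12, Adamts19 and Adamtsl2 were lower by about 2-fold or more. Of the 48 tested members, 17 rose and 13 fell, which is 62.5% of them, against 37.5% of all 14336 tested genes called in either direction, 19.8% higher and 17.7% lower (edgeR quasi-likelihood test, adjusted p below 0.05). The median log2 fold change of the tested members was 0.09, against 0.01 over all tested genes. The median size of the change, regardless of sign, was 0.55 for the members and 0.23 for all tested genes. Without control replicate 1, Mmp15 also passed (-0.22, adjusted p = 0.0037), and without control replicate 2 so did Adam12 (0.39, adjusted p = 0.000951), Adam9 (0.17, adjusted p = 0.0227) and Timp2 (0.25, adjusted p = 0.000245). Counts over tested members are descriptions, since a gene that is present in 1 group alone passes the filter through that group.

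**Figure D2:**
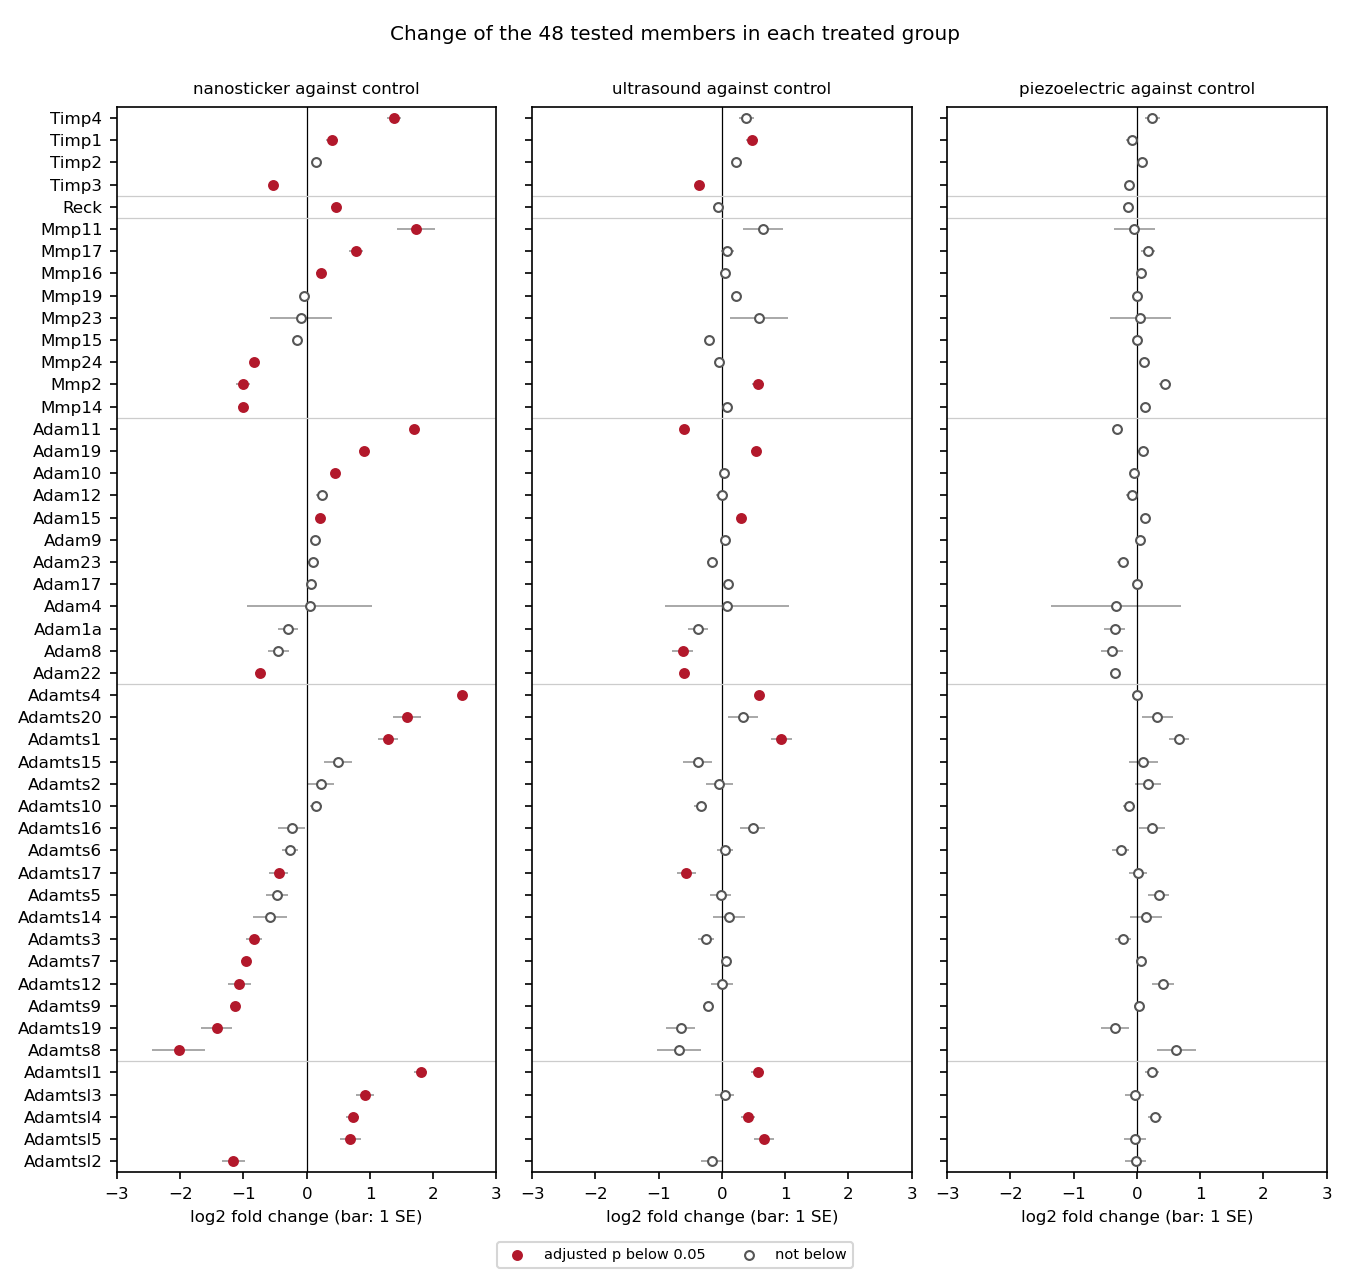
Log2 fold change of the 48 tested members against control in the nanosticker, ultrasound and piezoelectric groups (bars, 1 SE; filled points, adjusted p below 0.05; rows ordered by family and by the nanosticker change). Filled points are 30 in the nanosticker panel, 14 in the ultrasound panel and 0 in the piezoelectric panel.

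Among the Adamts enzymes the largest increase was in Adamts4, an aggrecanase that cuts lecticans and that is known in mouse brain as a gene of mature oligodendrocytes. It had 161 and 168 TPM in the nanosticker libraries, against 45.5 and 44.0 TPM with ultrasound, 28.7 and 32.2 TPM with the piezoelectric material and 29.0 and 32.8 TPM in control libraries. Both nanosticker libraries lay far above every other library. The change against control was 5.5-fold (log2 fold change 2.46 ± 0.07, adjusted p = 9.11e-11). Adamts4 lies at 89622996 to 89632485 of chromosome 13 (plus strand, Rnor 6.0, gene identifier 66015). Oligodendrocyte lineage markers moved in the same groups. In the nanosticker group 7 of 8 were higher and 0 lower, where 37.5% of all tested genes were called. With ultrasound 4 were higher and 1 lower, where 7.19% of all tested genes were called. The part of that lineage in the Adamts4 result was not tested.

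Adamts4 made up a larger part of its family in the nanosticker group. It supplied 77.9% and 78.8% of the summed TPM of the 19 Adamts genes in nanosticker libraries, against 42.4% and 42.0% with ultrasound, 29.6% and 32.5% with the piezoelectric material and 31.5% and 31.3% in controls. The family summed to 206 and 213 TPM in nanosticker libraries and to 91.9 and 105 TPM in control libraries. Without Adamts4 the same sums were 45.6 and 45.0 TPM with nanostickers and 62.9 and 72.0 TPM in controls, so the remaining 18 genes together stood lower in the nanosticker group.

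**Figure D3:**
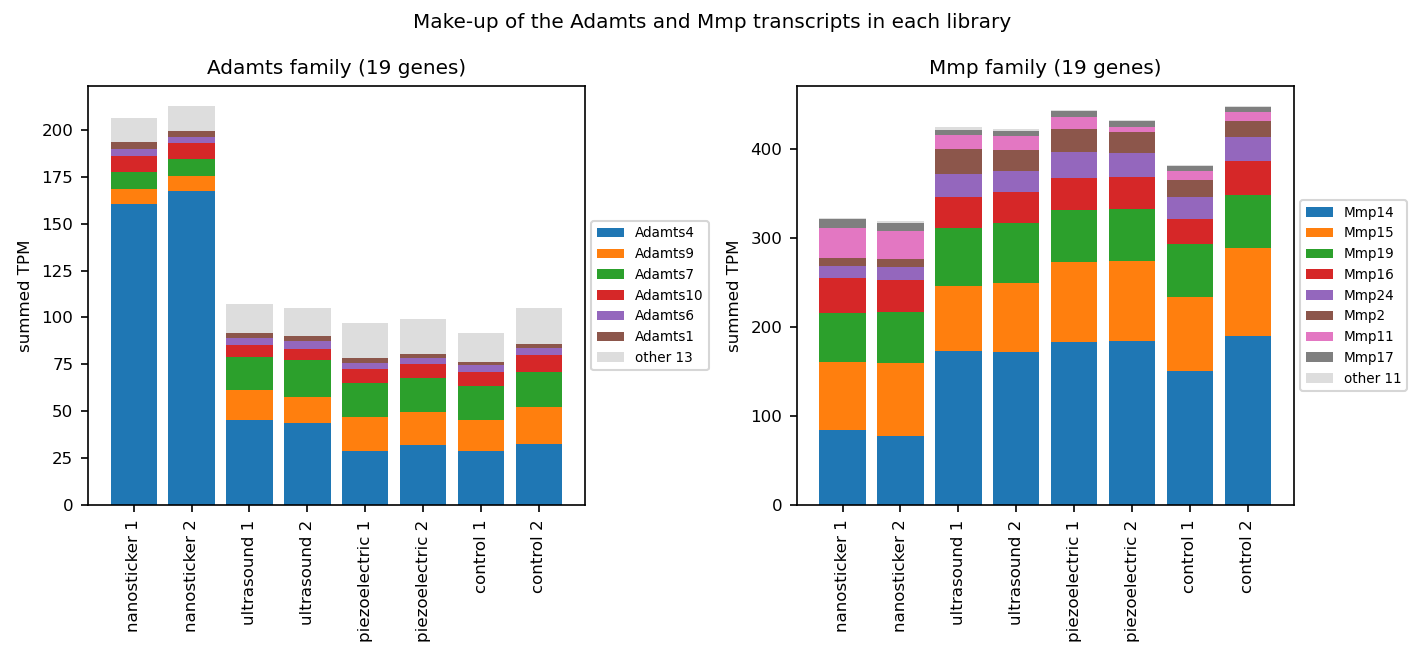
Summed TPM of the 19 Adamts genes (left) and the 19 Mmp genes (right) in each library, stacked by gene. Adamts4 makes up more than 77% of the Adamts sum in both nanosticker libraries and at most 42.4% elsewhere, and the Mmp14 segment is smallest in the nanosticker libraries.

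Of 17 tested Adamts genes, 3 rose and 7 fell with nanostickers, where 19.8% of all tested genes were called higher and 17.7% lower. Beside Adamts4 the ones that rose were Adamts1 and Adamts20. Adamts1, another enzyme that cuts aggrecan and versican, had 3.77 and 3.43 TPM in the nanosticker libraries, against 2.7 and 2.92 TPM with ultrasound, 2.41 and 2.37 TPM with the piezoelectric material and 1.34 and 1.71 TPM in control libraries (log2 fold change 1.29 ± 0.16, adjusted p = 3.06e-05). Adamts20 is the close relative of Adamts9, with which it shares a domain named after the worm protein GON-1, and the pair moved in opposite directions. Adamts20 was the rarer gene, with 1.76 and 1.78 TPM in nanosticker libraries, against 0.43 and 0.79 TPM in control libraries (log2 fold change 1.59 ± 0.22, adjusted p = 0.000106), and Adamts9 had 7.87 and 7.85 TPM in nanosticker libraries, against 16.4 and 19.2 TPM in control libraries (log2 fold change -1.13 ± 0.08, adjusted p = 1.05e-07). The groups did not overlap for either gene. Adamts7 and Adamts12, a related pair that cuts cartilage oligomeric matrix protein, both fell. For Adamts7 the levels were 8.9 and 9.11 TPM in the nanosticker libraries, against 17.8 and 19.4 TPM with ultrasound, 18.1 and 18.2 TPM with the piezoelectric material and 18.1 and 19.1 TPM in control libraries (log2 fold change -0.96 ± 0.08, adjusted p = 6.84e-07), so the nanosticker libraries lay well below every other library. Adamts12 had 0.56 and 0.6 TPM in nanosticker libraries, against 1.06 and 1.47 TPM in control libraries (log2 fold change -1.07 ± 0.18, adjusted p = 0.000547).

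Adamts3, which trims the amino end of procollagens and cuts reelin in mouse brain, fell as well (1.78 and 1.97 TPM in nanosticker libraries, against 3.23 and 3.69 TPM in control libraries; log2 fold change -0.83 ± 0.13, adjusted p = 0.000269). Its relatives Adamts2 (0.22, adjusted p = 0.445) and Adamts14 (-0.58, adjusted p = 0.113) did not pass the test. Adamts19 had 0.48 and 0.45 TPM in nanosticker libraries, against 1.23 and 1.36 TPM in control libraries and was 2.68-fold lower (adjusted p = 0.000513). Its relative Adamts17 fell less (1.81 and 1.7 TPM in nanosticker libraries, against 2.16 and 2.79 TPM in control libraries; log2 fold change -0.44, adjusted p = 0.0336), and that call ended without nanosticker replicate 1 (adjusted p = 0.0866), nanosticker replicate 2 (0.162) or control replicate 2 (0.179). Adamts8, which stayed under 1 TPM on average in each group and was singled out after its values were seen, had 0.13 and 0.14 TPM in nanosticker libraries, against 0.55 and 0.62 TPM in control libraries (adjusted p = 0.0018). It lies beside Adamts15 on chromosome 8, and Adamts15 stood at 0.50 (adjusted p = 0.0935). Adamts5, the other main aggrecanase and the neighbour of Adamts1 on chromosome 11, had 2.22 and 2.11 TPM in nanosticker libraries, against 3.04 and 3.17 TPM in control libraries and did not pass the test (-0.47, adjusted p = 0.0543). So the neighbouring genes Adamts1 and Adamts5 differed in outcome, as did Adamts8 and Adamts15, though the difference within each pair was not tested. Adamts10 (0.14, adjusted p = 0.281), Adamts6 (-0.27, adjusted p = 0.129) and Adamts16 (-0.24, adjusted p = 0.407) did not pass the test.

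The best-expressed membrane-type Mmp fell. Mmp14 had 84.5 and 78.0 TPM in the nanosticker libraries, against 173 and 172 TPM with ultrasound, 183 and 184 TPM with the piezoelectric material and 150.2 and 190.4 TPM in control libraries. Both nanosticker libraries lay below the other 6, and the level was 2.02-fold lower than in controls (log2 fold change -1.01 ± 0.08, adjusted p = 4.03e-07). Mmp14 lies at 33074403 to 33084845 of chromosome 15 (plus strand, Rnor 6.0, gene identifier 81707). Mmp2, the secreted gelatinase whose proenzyme Mmp14 activates, had 8.34 and 9.16 TPM in the nanosticker libraries, against 28.5 and 23.5 TPM with ultrasound, 26.0 and 22.9 TPM with the piezoelectric material and 18.6 and 17.7 TPM in control libraries. It was 2.01-fold lower in the nanosticker group (log2 fold change -1.0 ± 0.11, adjusted p = 1.08e-05), and the nanosticker libraries overlapped with no other group. Mmp2 lies at 15542771 to 15570589 of chromosome 19 (minus strand, Rnor 6.0, gene identifier 81686). Mmp24, a membrane-type protease best known from neural tissue, followed the same course, with 13.9 and 14.5 TPM in the nanosticker libraries, against 25.0 and 23.7 TPM with ultrasound, 28.6 and 27.5 TPM with the piezoelectric material and 25.4 and 27.1 TPM in control libraries (log2 fold change -0.84 ± 0.07, adjusted p = 4.96e-07).

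No other membrane-type gene was called lower. Mmp14, Mmp15, Mmp16 and Mmp24 are the 4 members with the carboxy-terminal tail domain DUF3377 in the deposited annotation. Of these, Mmp15 had 76.5 and 81.9 TPM in nanosticker libraries, against 83.4 and 98.5 TPM in control libraries and did not pass the test (-0.15, adjusted p = 0.0898). Mmp16 had 38.8 and 35.8 TPM in nanosticker libraries, against 28.3 and 37.5 TPM in control libraries, and its libraries overlapped although the test called it higher (0.22, adjusted p = 0.0316). That call ended without any 1 library other than control replicate 2 (adjusted p = 0.0563 to 0.19), and the log2 fold change was 0.09, adjusted p = 0.18 without control replicate 1, against 0.35, adjusted p = 2.37e-05 without control replicate 2. Mmp17, which is tied to the membrane by a glycolipid anchor, rose (10.3 and 9.13 TPM in nanosticker libraries, against 5.13 and 6.11 TPM in control libraries; log2 fold change 0.78 ± 0.11, adjusted p = 7.34e-05). In the table the span of Mmp17 holds 9 other genes, on both strands. Mmp11, a protease activated inside the cell by furin, had 34.4 and 31.4 TPM in the nanosticker libraries, against 15.21 and 15.8 TPM with ultrasound, 13.4 and 6.4 TPM with the piezoelectric material and 10.2 and 10.2 TPM in control libraries (log2 fold change 1.73 ± 0.30, adjusted p = 0.00841). Its counts are not whole numbers in some libraries, and the call ended without control replicate 1 (adjusted p = 0.0634) or control replicate 2 (0.0678). Mmp19, a secreted protease, had 54.9 and 56.8 TPM in nanosticker libraries, against 59.2 and 59.8 TPM in control libraries (-0.04, adjusted p = 0.713), and Mmp23 stood at -0.09 (adjusted p = 0.907). In sum the 19 Mmp genes gave 323 and 319 TPM in nanosticker libraries and 382 and 448 TPM in control libraries.

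The inhibitors moved apart. Timp4, the inhibitor with the most restricted tissue range, had 35.5 and 32.0 TPM in the nanosticker libraries, against 16.6 and 17.1 TPM with ultrasound, 17.1 and 14.4 TPM with the piezoelectric material and 14.2 and 12.6 TPM in control libraries. It rose 2.6-fold (log2 fold change 1.38 ± 0.12, adjusted p = 9.67e-07), and no other library reached the nanosticker level. Timp1 had 435 and 405 TPM in nanosticker libraries, against 352 and 309 TPM in control libraries and rose less (log2 fold change 0.40 ± 0.09, adjusted p = 0.00822). That call ended without nanosticker replicate 1 (adjusted p = 0.0599), and the log2 fold change was 0.25, adjusted p = 0.00505 without control replicate 2. Timp3, which binds the matrix and also inhibits Adam17 and the aggrecanases, fell (64.7 and 59.1 TPM in nanosticker libraries, against 86.6 and 98.6 TPM in control libraries; log2 fold change -0.53 ± 0.06, adjusted p = 1.17e-05). Timp2 had 423 and 435 TPM in nanosticker libraries, against 361 and 444 TPM in control libraries and did not pass the test (0.15, adjusted p = 0.0828). Reck, which restrains several Mmps at the cell surface, had 14.4 and 14.7 TPM in the nanosticker libraries, against 9.77 and 10.3 TPM with ultrasound, 9.4 and 9.89 TPM with the piezoelectric material and 10.5 and 11.1 TPM in control libraries and rose (log2 fold change 0.47 ± 0.08, adjusted p = 0.000404).

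A shared position of the inhibitors was visible in the table's coordinates. Timp1 lies inside the span of Syn1, Timp3 inside Syn3 and Timp4 inside Syn2, each on the strand opposite to its synapsin gene, which encodes a protein of synaptic vesicles. The sources used here do not say whether counting used strand. Timp4 and Timp1 rose in the nanosticker group, whereas Syn2 did not pass the test (log2 fold change -0.55, adjusted p = 0.0722) and Syn1 fell slightly (log2 fold change -0.18, adjusted p = 0.0202). Timp3 fell, and Syn3 did not pass the test (log2 fold change -1.08, adjusted p = 0.177). Averaged over the group, Timp4 had 33.7 TPM and Syn2 2.76 TPM in nanosticker libraries. In all, 12 of the 65 members overlap the span of another gene of the table.

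Among the Adam genes with an active protease, Adam10, the sheddase of Notch, N-cadherin and the amyloid precursor protein, had 55.9 and 56.5 TPM in the nanosticker libraries, against 43.2 and 40.8 TPM with ultrasound, 43.2 and 38.7 TPM with the piezoelectric material and 40.2 and 45.3 TPM in control libraries and rose (log2 fold change 0.45 ± 0.06, adjusted p = 9.19e-05). Adam17, the sheddase of tumour necrosis factor and of several ErbB ligands, had 24.7 and 24.0 TPM in nanosticker libraries, against 23.4 and 24.6 TPM in control libraries and did not pass the test (0.07, adjusted p = 0.453). Adam9, another membrane sheddase, also did not pass (0.13, adjusted p = 0.109). Adam19, which can release neuregulin, had 15.3 and 14.7 TPM in the nanosticker libraries, against 11.4 and 11.8 TPM with ultrasound, 9.17 and 8.49 TPM with the piezoelectric material and 7.51 and 9.14 TPM in control libraries and rose (log2 fold change 0.90 ± 0.08, adjusted p = 1.45e-06). Adam15 rose by a small amount (100 and 103 TPM in nanosticker libraries, against 87.4 and 93.8 TPM in control libraries; log2 fold change 0.21 ± 0.05, adjusted p = 0.00797), and that call ended without nanosticker replicate 2 (adjusted p = 0.0753). Adam8 (-0.45, adjusted p = 0.0536) did not pass, and neither did Adam12 (0.24, adjusted p = 0.0621), a gene whose counts are not whole in all libraries.

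Adam11, Adam22 and Adam23 encode proteins without protease activity, and Adam22 and Adam23 are known as receptors of the secreted Lgi proteins at synapses. Adam11 had 114 and 116 TPM in the nanosticker libraries, against 22.7 and 22.6 TPM with ultrasound, 28.5 and 29.5 TPM with the piezoelectric material and 34.3 and 38.1 TPM in control libraries. It rose 3.24-fold in the nanosticker group (log2 fold change 1.69 ± 0.06, adjusted p = 6.43e-10), and the nanosticker libraries lay above all others by a wide margin. Adam11 lies at 90731260 to 90750276 of chromosome 10 (plus strand, Rnor 6.0, gene identifier 360638). Adam22 had 6.62 and 7.36 TPM in the nanosticker libraries, against 8.36 and 8.02 TPM with ultrasound, 10.3 and 9.73 TPM with the piezoelectric material and 11.7 and 12.3 TPM in control libraries and fell (log2 fold change -0.75 ± 0.07, adjusted p = 3.68e-06). Adam23 had 14.0 and 14.2 TPM in nanosticker libraries, against 13.6 and 13.5 TPM in control libraries and did not pass the test (0.11, adjusted p = 0.375). Of 6 neuron markers, 1 rose and 4 fell in the same comparison, where 37.5% of all tested genes were called. Their summed level was 372 to 378 TPM in the nanosticker group and 567 to 589.6 TPM with ultrasound. It was 610.5 to 637 TPM with the piezoelectric material and 625 to 627 TPM in the control group. The part of neurons in the results for Adam11, Adam22 and Adam23 was not tested.

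All 5 Adamtsl genes were called in the nanosticker group, with 4 higher and 1 lower, where 37.5% of all tested genes were called. Adamtsl1, also called punctin, had 10.1 and 10.5 TPM in the nanosticker libraries, against 4.34 and 4.35 TPM with ultrasound, 3.61 and 3.52 TPM with the piezoelectric material and 2.6 and 3.55 TPM in control libraries (log2 fold change 1.80 ± 0.10, adjusted p = 1.93e-08). Adamtsl3, its close relative, had 3.15 and 2.62 TPM in nanosticker libraries, against 1.47 and 1.74 TPM in control libraries (log2 fold change 0.92 ± 0.14, adjusted p = 0.000242). Adamtsl4, a binding partner of fibrillin, had 9.38 and 8.68 TPM in nanosticker libraries, against 5.19 and 6.13 TPM in control libraries (log2 fold change 0.73 ± 0.10, adjusted p = 0.000123), and Adamtsl5 had 3.64 and 4.04 TPM in nanosticker libraries, against 2.26 and 3.44 TPM in control libraries (log2 fold change 0.69 ± 0.16, adjusted p = 0.00521). The Adamtsl5 call was the one of these that ended with DESeq2 (adjusted p = 0.0993). The exception was Adamtsl2, which binds fibrillin and a latent TGF-beta binding protein. It had 1.17 and 1.05 TPM in the nanosticker libraries, against 2.21 and 2.24 TPM with ultrasound, 2.43 and 2.6 TPM with the piezoelectric material and 2.59 and 2.57 TPM in control libraries, so the nanosticker libraries were below all others (log2 fold change -1.16 ± 0.18, adjusted p = 0.000234).

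**Figure D4:**
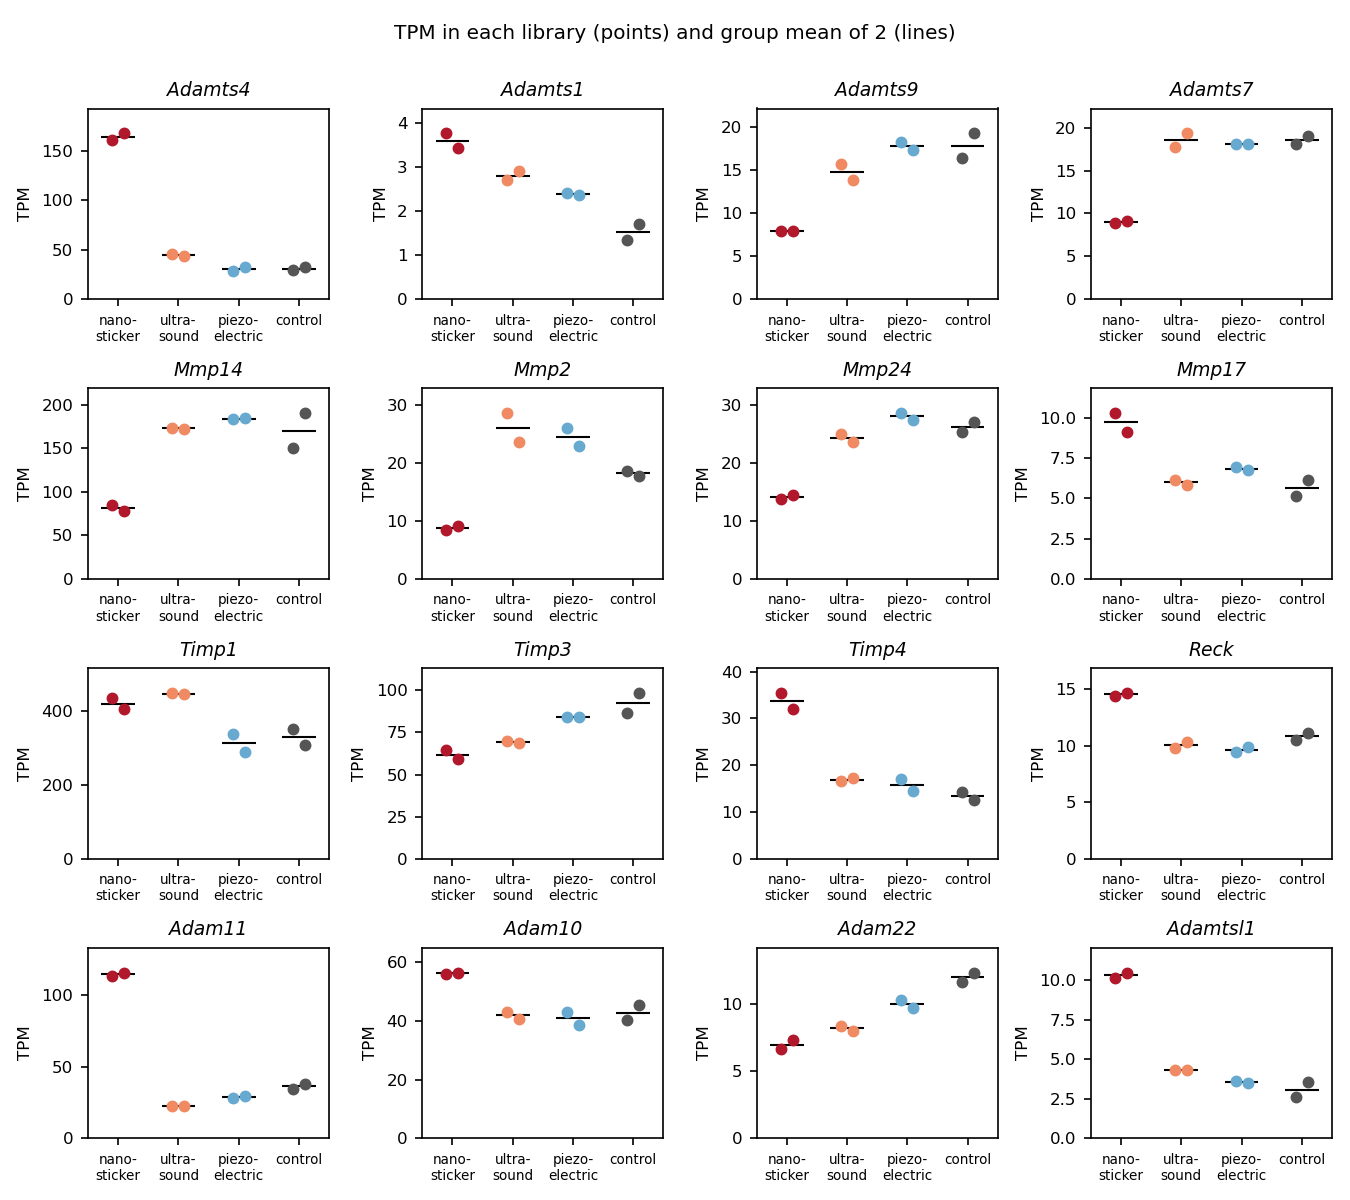
TPM of 16 members in each library (points; 2 per group) with the group mean (line), each panel on its own linear axis from 0. Adamts4, Timp4, Reck, Adam11, Adam10, Mmp17 and Adamtsl1 are highest in the nanosticker group, Mmp14, Mmp2, Mmp24, Adamts9, Adamts7, Timp3 and Adam22 are lowest there, and Adam11 and Mmp2 lie on opposite sides of control in the nanosticker and ultrasound groups.

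Ultrasound-treated cells were set against the same untreated cells. Adamts1, Adamts4, Adamtsl1, Mmp2 and Timp1 were among the members that rose, and Adam11, Adam22 and Timp3 were among those that fell. Of the 48 tested members, 9 rose and 5 fell, 29.2% in all, against 7.19% of all tested genes, 4.03% higher and 3.16% lower. The median log2 fold change was 0.05, against 0.01 over all tested genes, and the median size regardless of sign was 0.27, against 0.12 over all tested genes. Without ultrasound replicate 1 the count was 7, with 2.57% of all tested genes called, and without ultrasound replicate 2 it was 6, with 2.7%. It was 8, with 3.41% of all genes, when the fit held the ultrasound and control libraries alone. Without control replicate 1 it was 16, with 12.1% of all genes, and without control replicate 2 it was 19, with 15%. With the length trend of each library removed it was 18, with 11.1% of all genes, and with genes of whole counts only 17, with 9.14%. The comparison shares its control libraries with that of nanosticker against control.

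The calls of Adam11, Adam19, Adam22 and Adamts4 held under each of the 17 alternatives. Adamts4 had 45.5 and 44.0 TPM in ultrasound libraries, against 29.0 and 32.8 TPM in control libraries, so that the groups did not overlap (log2 fold change 0.60 ± 0.07, adjusted p = 0.00019). Of 8 oligodendrocyte lineage markers, 4 were higher and 1 was lower with ultrasound, where 7.19% of all tested genes were called. Mbp had 4436 and 4407 TPM in ultrasound libraries, against 3200 and 3417 TPM in control libraries. Sox10, the lower one, had 48.6 and 43.5 TPM in ultrasound libraries, against 67.8 and 71.7 TPM in control libraries. The part of that lineage in the Adamts4 result was not tested. Adam19 rose too (11.4 and 11.8 TPM in ultrasound libraries, against 7.51 and 9.14 TPM in control libraries; log2 fold change 0.54 ± 0.08, adjusted p = 0.00122). Adam11 had 22.7 and 22.6 TPM in ultrasound libraries, against 34.3 and 38.1 TPM in control libraries and fell (log2 fold change -0.60 ± 0.06, adjusted p = 8.98e-05), and so did Adam22 (8.36 and 8.02 TPM in ultrasound libraries, against 11.7 and 12.3 TPM in control libraries; log2 fold change -0.59 ± 0.07, adjusted p = 0.000259). No library of one group reached the level of the other group for any of these 4 genes. Mmp2 rose to 28.5 and 23.5 TPM in ultrasound libraries, against 18.6 and 17.7 TPM in control libraries (log2 fold change 0.57 ± 0.10, adjusted p = 0.00322), and the call ended without ultrasound replicate 1 (adjusted p = 0.07). Adamts1 rose (log2 fold change 0.94 ± 0.16, adjusted p = 0.00298), with the call ending without ultrasound replicate 2 (adjusted p = 0.0513).

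Among the inhibitors, Timp1 rose with ultrasound (449.6 and 445 TPM in ultrasound libraries, against 352 and 309 TPM in control libraries; log2 fold change 0.47 ± 0.09, adjusted p = 0.0144) and Timp3 fell (69.8 and 68.6 TPM in ultrasound libraries, against 86.6 and 98.6 TPM in control libraries; log2 fold change -0.37 ± 0.06, adjusted p = 0.00185). The Timp1 call ended without ultrasound replicate 1 (adjusted p = 0.111) or 2 (0.107), and the Timp3 call without ultrasound replicate 1 (0.0507). Timp4 stood at 0.39 (adjusted p = 0.0823), Timp2 at 0.22 (adjusted p = 0.0509) and Reck at -0.05 (adjusted p = 0.797), and none of them passed the test. The membrane-type genes Mmp14 (0.08, adjusted p = 0.605) and Mmp24 (-0.05, adjusted p = 0.749), which fell with nanostickers, did not pass with ultrasound. Mmp11 had 15.21 and 15.8 TPM in ultrasound libraries, against 10.2 and 10.2 TPM in control libraries. It did not pass, but it was called higher when the fit held the ultrasound and control libraries alone. The authors' deposited DESeq2 values for Mmp11 were a log2 fold change of 0.66 and q = 0.0457. Without control replicate 1, Timp4 passed (0.53, adjusted p = 0.0103), as did Mmp15 (-0.28, adjusted p = 0.00189), Mmp19 (0.27, adjusted p = 0.0187), Adamts9 (-0.30, adjusted p = 0.00425) and Adamts10 (-0.41, adjusted p = 0.024). Without control replicate 2, Timp2 passed (0.32, adjusted p = 5.66e-05), as did Mmp14 (0.21, adjusted p = 0.0119), Mmp16 (0.17, adjusted p = 0.0391), Adamts16 (0.71, adjusted p = 0.0471) and Adamts20 (0.78, adjusted p = 0.0434). Adam15 rose to 106 and 108 TPM in ultrasound libraries, against 87.4 and 93.8 TPM in control libraries (log2 fold change 0.30 ± 0.05, adjusted p = 0.00371). Adamtsl1 rose as well (4.34 and 4.35 TPM in ultrasound libraries, against 2.6 and 3.55 TPM in control libraries; log2 fold change 0.57 ± 0.10, adjusted p = 0.00493), and each call ended without ultrasound replicate 2 (adjusted p = 0.0821 for Adam15 and 0.0653 for Adamtsl1). The 4 remaining calls were less firm. Adamtsl4 (7.42 and 7.12 TPM in ultrasound libraries, against 5.19 and 6.13 TPM in control libraries; log2 fold change 0.41, adjusted p = 0.0328) and Adamtsl5 (3.91 and 3.66 TPM in ultrasound libraries, against 2.26 and 3.44 TPM in control libraries; 0.67, adjusted p = 0.0268) were higher. Adam8, a sheddase of leukocytes and reactive glia (1.67 and 1.36 TPM in ultrasound libraries, against 2.38 and 2.45 TPM in control libraries; -0.62, adjusted p = 0.0459), and Adamts17 (1.66 and 1.54 TPM in ultrasound libraries, against 2.16 and 2.79 TPM in control libraries; -0.56, adjusted p = 0.0388) were lower. Each of these ended without 5 or 7 of the 8 libraries in turn, with adjusted p of 0.0569 to 0.222 for Adamtsl4, 0.0512 to 0.182 for Adamtsl5, 0.0523 to 0.337 for Adam8 and 0.0619 to 0.239 for Adamts17.

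With the piezoelectric material, 0 of the 48 tested members passed edgeR's test. DESeq2 also called 0. The background was low, with 0.23% of all tested genes called, 0.16% higher and 0.0698% lower. The largest log2 fold changes were in Adamts1 (2.41 and 2.37 TPM in piezoelectric libraries, against 1.34 and 1.71 TPM in control libraries; log2 fold change 0.66 ± 0.16, adjusted p = 0.162) and Adamts8 (0.63, adjusted p = 0.648). Mmp2 had 26.0 and 22.9 TPM in piezoelectric libraries, against 18.6 and 17.7 TPM in control libraries (log2 fold change 0.44 ± 0.10, adjusted p = 0.109), and Adam11 had 28.5 and 29.5 TPM in piezoelectric libraries, against 34.3 and 38.1 TPM in control libraries (log2 fold change -0.31 ± 0.06, adjusted p = 0.0598). For Adamts1, Adamts8, Mmp2 and Adam11 the libraries of the groups did not overlap. The same held for other members that did not pass, among them Adam15, Timp3 and Reck. With 2 libraries per group such separation says little by itself, and its share over all genes was not counted. The count was 9 without control replicate 2, with 7.73% of all tested genes called in that fit, and 2 without control replicate 1, with 1.39% of all tested genes called. Without control replicate 2 the called members were Adamts1 (0.79, adjusted p = 0.0179), Adamtsl1, Mmp2, Mmp14, Mmp16 and Timp2, which were higher, and Adam11, Adam22 and Adam23, which were lower. Adam11 and Mmp2 were the 2 called without control replicate 1.

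The nanosticker group was also set against the other treated groups. Against the piezoelectric group 18 of the 48 tested members were higher and 14 lower, 66.7% in all, with 36.4% of all tested genes called, 18.9% higher and 17.4% lower. Against the ultrasound group 15 were higher and 13 lower, 58.3% in all, with 34.4% of all tested genes called, 17.6% higher and 16.9% lower. These comparisons and the one with control share the nanosticker libraries, so the values are given side by side. Adamts4 stood at 2.46 ± 0.07 against piezoelectric and 1.87 ± 0.07 against ultrasound. Adam11 stood at 2.00 ± 0.06 and 2.30 ± 0.06 in the same order. Mmp2 showed its widest gap here, with -1.45 ± 0.11 against piezoelectric and -1.58 ± 0.11 against ultrasound (adjusted p = 3.17e-07 and 1.73e-07). Mmp14 differed by -1.14 ± 0.08 from the piezoelectric group and by -1.09 ± 0.08 from the ultrasound group, and Timp4 by 1.14 ± 0.11 and 1.00 ± 0.11. Reck was higher than in the piezoelectric group by 0.61 ± 0.08 and than in the ultrasound group by 0.52 ± 0.08. For each of these 6 genes both differences passed the test.

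Timp1 separated the treated groups differently. It was higher with nanostickers than with the piezoelectric material (log2 fold change 0.47 ± 0.10, adjusted p = 0.00329), while against ultrasound it did not pass the test (log2 fold change -0.07 ± 0.09, adjusted p = 0.591). Adam15 passed neither comparison (0.08, adjusted p = 0.258 against piezoelectric and -0.09, adjusted p = 0.201 against ultrasound). In all, 12 of the 48 tested members were called higher with nanostickers against each of the 3 other groups, where 13.2% of all tested genes met the same condition. These 3 comparisons share the nanosticker libraries. The members higher in all of them were Adam10, Adam11, Adam19, Adamts4, Adamts20, Adamtsl1, Adamtsl3, Adamtsl4, Mmp11, Mmp17, Reck and Timp4. Another 11 were called lower against each of them, where 12.2% of all tested genes were. They were Adamts3, Adamts7, Adamts8, Adamts9, Adamts12, Adamts19, Adamtsl2, Mmp2, Mmp14, Mmp24 and Timp3. Among these, the calls of Adamts19 and Adamtsl4 against either treated group ended without 1 library. So did those of Mmp11, Timp3 and Adamts8 against ultrasound. Adamts8 had 5 and 5 counts in nanosticker libraries, against 13 and 14 in ultrasound libraries. Its call against ultrasound ended without any 1 of these libraries, and also with DESeq2. Some members were called against another treated group but not against control. Adamts5 was lower with nanostickers than with the piezoelectric material (2.22 and 2.11 TPM in nanosticker libraries, against 3.59 and 4.19 TPM in piezoelectric libraries; log2 fold change -0.81 ± 0.17, adjusted p = 0.00269), a call that ended with DESeq2 (adjusted p = 0.0519). Adamts10, a partner of fibrillin fibres, was higher than with ultrasound (8.86 and 8.29 TPM in nanosticker libraries, against 6.35 and 6.07 TPM in ultrasound libraries; log2 fold change 0.48 ± 0.10, adjusted p = 0.00237). Against the piezoelectric group, with 7.4 and 7.41 TPM, it was called by a narrow margin (0.27, adjusted p = 0.0492), a call that ended under 12 of 17 alternatives, among them leaving out any 1 of the 6 nanosticker, ultrasound and piezoelectric libraries (adjusted p = 0.0774 to 0.229). Adam23 was higher than with the piezoelectric material (14.0 and 14.2 TPM in nanosticker libraries, against 12.4 and 11.0 TPM in piezoelectric libraries; log2 fold change 0.33 ± 0.09, adjusted p = 0.0102), a call that ended without nanosticker replicate 2 (adjusted p = 0.0614) or piezoelectric replicate 2 (0.112). Adamts15 was higher than with ultrasound (1.11 and 1.12 TPM in nanosticker libraries, against 0.61 and 0.59 TPM in ultrasound libraries; 0.88, adjusted p = 0.0086), and Adamts16 (0.9 and 1.13 TPM in nanosticker libraries, against 1.8 and 1.54 TPM in ultrasound libraries; -0.73, adjusted p = 0.0143) and Mmp19 (54.9 and 56.8 TPM in nanosticker libraries, against 64.9 and 67.04 TPM in ultrasound libraries; -0.26, adjusted p = 0.00876) were lower, and each of these calls ended without 2 of the 8 libraries in turn (adjusted p from 0.0574 to 0.0579 for Adamts15, 0.109 to 0.129 for Adamts16 and 0.0704 to 0.0948 for Mmp19). Adam12 was called higher than with the piezoelectric material (8.5 and 8.31 TPM in nanosticker libraries, against 6.82 and 6.98 TPM in piezoelectric libraries; 0.31, adjusted p = 0.0204), which ended without 4 libraries in turn (adjusted p from 0.0668 to 0.128).

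Genes that activate the proenzymes were followed as lists. Plasmin, released from plasminogen by the activators, is a known activator of several Mmps. Of 6 tested genes of plasminogen activation, 1 rose and 2 fell with nanostickers, 2 and 1 with ultrasound, and 0 and 0 with the piezoelectric material (median log2 fold changes -0.07, -0.21 and -0.02). The activator genes Plat (-0.37 ± 0.06, adjusted p = 0.000211) and Plau (-1.64 ± 0.43, adjusted p = 0.00923) fell with nanostickers. The proprotein convertases cut the prodomains of Adam, Adamts and membrane-type Mmp proteins. Of 6 tested, 2 rose and 1 fell with nanostickers, 2 and 0 with ultrasound, and 0 and 0 with the piezoelectric material (median log2 fold changes -0.12, -0.02 and -0.00). Pcsk6 (1.13 ± 0.07, adjusted p = 3.63e-08) and Pcsk1 (2.46 ± 0.33, adjusted p = 7.35e-05) rose with nanostickers and Pcsk2 (-0.64 ± 0.17, adjusted p = 0.00978) fell, while Furin did not pass (-0.12 ± 0.08, adjusted p = 0.279). The median over all tested genes was 0.01 with nanostickers, 0.01 with ultrasound and 0.00 with the piezoelectric material. Of all tested genes, 37.5% were called with nanostickers, 7.19% with ultrasound and 0.23% with the piezoelectric material. Counts in lists this short are descriptions.

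The next lists stand beside the same shares of all tested genes called, 37.5%, 7.19% and 0.23% in the order nanosticker, ultrasound and piezoelectric. Of 12 tested zinc metalloproteases outside the named families, 4 rose and 4 fell with nanostickers, 1 and 0 with ultrasound, and 0 and 0 with the piezoelectric material (median log2 fold changes 0.14, 0.02 and 0.04). Ece1, which makes endothelin (1.48 ± 0.08, adjusted p = 1.92e-08), Bmp1, the procollagen C-proteinase (0.60 ± 0.05, adjusted p = 1.1e-06), and Pappa1, which cuts binding proteins of insulin-like growth factor (1.78 ± 0.32, adjusted p = 0.000796), rose with nanostickers. Of 9 tested further inhibitors and cofactors, 5 rose and 1 fell with nanostickers, 2 and 0 with ultrasound, and 0 and 0 with the piezoelectric material (median log2 fold changes 0.47, 0.15 and 0.00). The list is mixed in role. Pcolce, which enhances Bmp1 (1.25 ± 0.13, adjusted p = 5.81e-06), Cst3, which inhibits cysteine proteases (0.61 ± 0.06, adjusted p = 7.43e-06), and Spock1, a testican proteoglycan (0.74 ± 0.15, adjusted p = 0.00139), were the 3 with the smallest adjusted p. Of 8 tested iRhom and tetraspanin genes, whose proteins escort Adam17 and Adam10 to the cell surface, 5 rose and 2 fell with nanostickers, 0 and 0 with ultrasound, and 0 and 0 with the piezoelectric material (median log2 fold changes 0.31, 0.14 and -0.06). Tspan15, a partner of Adam10 (1.00 ± 0.11, adjusted p = 1.26e-05), and Rhbdf1, a partner of Adam17 (0.71 ± 0.09, adjusted p = 3.41e-05), rose, and Tspan33, another partner of Adam10, fell (-0.61 ± 0.11, adjusted p = 0.000959).

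Substrates and binding partners moved in both directions. Again, 37.5% of all tested genes were called with nanostickers, 7.19% with ultrasound and 0.23% with the piezoelectric material. Of 22 tested genes of shed membrane proteins, 6 rose and 8 fell with nanostickers, 2 and 3 with ultrasound, and 0 and 1 with the piezoelectric material (median log2 fold changes -0.01, -0.10 and -0.04). App, the amyloid precursor protein gene (1.21 ± 0.05, adjusted p = 2.28e-09), and Tgfa, an ErbB ligand (1.02 ± 0.07, adjusted p = 9.44e-08), rose with nanostickers, and the Notch ligand gene Dll1 fell (-0.79 ± 0.07, adjusted p = 1.64e-06). Of 9 tested lecticans and partners, 2 rose and 2 fell with nanostickers, 1 and 2 with ultrasound, and 0 and 0 with the piezoelectric material (median log2 fold changes 0.11, -0.03 and 0.16). Tnc, the matrix protein tenascin C, fell (-3.03 ± 0.08, adjusted p = 6.55e-11), and the link protein gene Hapln2 (0.95 ± 0.13, adjusted p = 0.000105) and Acan, the aggrecan gene (1.31 ± 0.27, adjusted p = 0.00217), rose. The brain lectican genes Bcan (-0.06 ± 0.06, adjusted p = 0.498), Ncan (0.11 ± 0.12, adjusted p = 0.537) and Vcan (0.06 ± 0.10, adjusted p = 0.693) did not pass the test. Of 12 tested genes of fibrillin microfibrils, 5 rose and 2 fell with nanostickers, 1 and 2 with ultrasound, and 0 and 0 with the piezoelectric material (median log2 fold changes 0.17, 0.02 and 0.14). Fbln5 (0.74 ± 0.10, adjusted p = 4.98e-05) and Ltbp4 (0.39 ± 0.06, adjusted p = 0.000129), which act in elastic fibre assembly, rose, and the crosslinking enzyme gene Lox fell (-0.44 ± 0.07, adjusted p = 0.000347).

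Markers of other cell types moved in the same comparisons as the members. Beside their counts stand the shares of all tested genes called against control. These were 37.5% with nanostickers, 7.19% with ultrasound and 0.23% with the piezoelectric material. In the nanosticker group all 8 microglia and macrophage markers fell, 5 of 6 astrocyte markers fell and 0 rose, and 5 of 8 stem and progenitor markers fell and 2 rose. Of 8 fibroblast and meningeal markers, 4 rose and 1 fell with nanostickers, 5 rose with ultrasound and 4 with the piezoelectric material, and their summed level was 97.6 to 101 TPM in the nanosticker group, 89.2 to 94.9 TPM with ultrasound, 86.2 to 97.0 TPM with the piezoelectric material and 59.3 to 69.4 TPM in the control group. The 6 endothelial markers summed to 2.34 to 2.58 TPM in the nanosticker group, 0.95 to 1.1 TPM with ultrasound, 1.02 to 1.2 TPM with the piezoelectric material and 0.72 to 1.43 TPM in the control group, with Cldn5 at 0 in the nanosticker, piezoelectric and control groups, and 2 of the 3 tested rose with nanostickers. Those of ependyma and choroid plexus summed to 61.5 to 62.7 TPM in the nanosticker group, 119.9 to 123 TPM with ultrasound, 255 to 289 TPM with the piezoelectric material and 85.3 to 86.4 TPM in the control group, with Kl at 0 in the control group. Of the 5 tested 1 rose and 1 fell with nanostickers, 1 rose with ultrasound and 2 rose with the piezoelectric material. Ttr made up most of the difference with the piezoelectric material, at 165 and 191 TPM in piezoelectric libraries, against 9.74 and 7.77 TPM in control libraries, and the 5 other markers together had 89.5 and 98.7 TPM with the piezoelectric material, against 75.6 and 78.7 TPM in controls. The part of any of these cell types in the changes of the metalloproteases and inhibitors was not tested.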

How the data were processed

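The series holds 8 RNA sequencing samples of rat neural stem cells, 4 groups of 2, with group and replicate number taken from the labels. The authors deposited 1 table of 18374 genes with estimated counts and TPM, per the file headers, 1 column of each per library. FPKM values that the authors deposited were used only to derive effective lengths. The deposited counts are not whole in 10.5% of cases (tolerance 0.005), and 5 members have such a count. The authors also deposited log2 fold changes, with p-values and q-values from DESeq2, per the file headers. In the authors' deposited table, 25 of 62 members with a q-value had one below 0.05 for nanosticker against control, 8 of 64 for ultrasound against control and 0 of 61 for piezoelectric against control. The submitters' processing notes give the genome build as Rnor 6.0. Which aligner, counting program and strand setting were used is not given in the sources used here. A deposited correlation matrix was not used.

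Rounded counts went into edgeR 4.0.16 under R 4.3.3 (filterByExpr, which kept 14336 genes, TMM scaling, robust quasi-likelihood fit of the 8 libraries with a mean per group, 4 residual degrees of freedom, two-sided F test, Benjamini-Hochberg over all tested genes, threshold 0.05). Log2 fold changes of counts are given ± SE, which was derived from the F statistic, with n = 2 per group. Levels are TPM. The steps were run on simulated counts with the same spread for every gene and no length trend. These data differ on both points, so that run does not vouch for the calls made here. The 5 comparisons, the lists, the markers and the 17 alternatives were chosen with earlier results of these data known. Described in full are members called in a comparison with a mean of at least 1 TPM in a group compared, 11 members named in any case and the 3 members of highest mean TPM in each of 4 families; for each list, the 3 genes with the smallest adjusted p for nanosticker against control, with Furin, Bcan, Ncan and Vcan added after their values were seen; 1 gene that this rule names is not reported here. Members outside this rule that were named beside a relative were also added after their values were seen. Of 155 list and marker symbols, 152 matched the table, 2 by an older symbol. Alternatives included DESeq2 1.42.0, which used its own size factors. Planned searches of protein and promoter motifs were not run, since no sequences were at hand, and no sequences are printed.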

Additional observations from a re-analysis of the deposited data

How the results depend on the processing

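No called member changed sign under an alternative that gave it a value. Over the 17 alternatives, 2 values were missing for nanosticker against control, 0 for ultrasound against control, 3 for nanosticker against piezoelectric and 2 for nanosticker against ultrasound. Mmp11 and Adam12 have none with genes of whole counts only. Of the calls of described members, 23 of 29 for nanosticker against control, 4 of 14 for ultrasound against control, 21 of 31 for nanosticker against piezoelectric and 19 of 27 for nanosticker against ultrasound held under each alternative that gave a value. The number of members called for nanosticker against control, 30, ran from 27 to 34 under other settings and from 27 to 32 with 1 library left out. For nanosticker against piezoelectric the number, 32, ran from 24 to 35 under other settings, with 24.2% to 45.1% of all tested genes called. For nanosticker against ultrasound the number, 28, ran from 20 to 33, with 22% to 44.2% of all tested genes called. With 1 library left out, both numbers moved in either direction, and so did the shares of all tested genes. The 14 calls of ultrasound against control became 8 with ultrasound and control libraries alone in the fit and ran from 6 to 19 with 1 library left out (7 without ultrasound replicate 1, 6 without ultrasound replicate 2). The 0 calls of piezoelectric against control became 3 without a filter on low counts, 2 with the length trend of each library removed, 2 with genes of whole counts only, and 0 to 9 with 1 library left out (2 without control replicate 1, 9 without control replicate 2). The cause of these moves was not tested. For nanosticker against control, calls ended for Adamts17, Adamtsl5, Mmp16 with DESeq2 (adjusted p = 0.0766 to 0.233), for Adam15, Adamts17, Mmp16 with a fit of the compared groups alone (adjusted p = 0.0647 to 0.155), for Mmp16 with scaling by library size alone (adjusted p = 0.11). For ultrasound against control, calls ended for Adam8, Adamts17, Adamtsl4, Adamtsl5 with DESeq2 (adjusted p = 0.301 to 0.335), for Adam15, Adam8, Adamts17, Adamtsl1, Adamtsl4, Adamtsl5, Timp1 with a fit of the compared groups alone (adjusted p = 0.0521 to 0.121). For nanosticker against piezoelectric, calls ended for Adam12, Adamts1, Adamts10, Adamts17, Adamts19, Adamts5, Adamtsl4, Adamtsl5 with DESeq2 (adjusted p = 0.0519 to 0.323), for Mmp11 with a fit of the compared groups alone (adjusted p = 0.0936), for Adamts10 with scaling by library size alone (adjusted p = 0.104), with relative log expression size factors (0.0508), without a filter on low counts (0.0596) and with a stricter one (0.0519). For nanosticker against ultrasound, calls ended for Adam23, Adamts15, Adamts16, Adamts19, Adamtsl4, Mmp19, Timp3 with DESeq2 (adjusted p = 0.0518 to 0.26). The call of Adamts8, which is outside the described members, ended with DESeq2 too. Calls also ended for Adam23, Adamtsl4 with scaling by library size alone (adjusted p = 0.0589 to 0.079) and for Timp3 with relative log expression size factors (0.0535). The same held for Mmp11, Timp3 without a filter on low counts (0.0536 to 0.0712) and for Adam23 with the length trend removed (0.102). Leaving out either control library added calls of Adamts16, Mmp15 and Mmp16 for nanosticker against piezoelectric (adjusted p = 0.0101 to 0.0497) and of Adam12 and Mmp16 for nanosticker against ultrasound (0.00277 to 0.0104). Over these settings the share of all tested genes called ran from 23.9% to 42.9% for nanosticker against control, 2.57% to 15% for ultrasound and 0.0714% to 7.73% for piezoelectric. Same-numbered samples did not deviate together (correlations of their deviations from the group means from -0.136 to 0.135), so the numbers were not taken as pairs. With the replicate number as a block the counts were 30, 11, 0, 31 and 26 in the order nanosticker, ultrasound and piezoelectric against control, nanosticker against piezoelectric and against ultrasound. The shares of all tested genes called were 34.7%, 5.53%, 0.188%, 33.6% and 31.8% in the same order. The block ended the calls of Adam8, Adamts17 and Adamtsl4 for ultrasound against control (adjusted p = 0.0584 to 0.0805), of Adamts10 for nanosticker against piezoelectric (0.0702) and of Adam23 and Timp3 for nanosticker against ultrasound (0.0595 to 0.0736). The 17 untested members had at most 8 counts in a library, too few for a comparison at this depth.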
